A study of Homo sapiens with 6 samples.

Results

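The genes that carry a cell through the end of G2 and through mitosis were examined in MDA-MB-231 cells after treatment with guadecitabine. The set held 43 genes by name, from the CDK1-cyclin switch to cytokinesis, and each of them had 1 row among the 17100 transcripts of the table. MDA-MB-231 is an established human cell line from a breast adenocarcinoma, and guadecitabine (SGI-110) is a dinucleotide from which cells obtain decitabine, a nucleoside that is built into newly made DNA and traps DNA methyltransferases there. The guadecitabine group was 3 libraries of MDA-MB-231 cells grown with 1 µM of the drug for 96 h and then without it for 24 h. The vehicle group was 3 libraries of the same cell line that received the drug's solvent, and the handling of that group is not described further in the labels. The study's methods name 3 independent experiments. All of this is 1 cell line without an untreated arm, and each library is a whole culture, so that fewer cells in G2 or mitosis and less mRNA per such cell cannot be told apart.

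Entry into mitosis is driven by the kinase CDK1 bound to cyclin B. CDC25 phosphatases switch it on, and the polo and Aurora kinases build the spindle, attach the chromosomes to it and later drive the separation of the daughter cells. Unattached chromosomes hold the cell in metaphase through the spindle assembly checkpoint, until CDC20 activates the anaphase-promoting complex (APC/C), which marks cyclin B and securin for destruction. Many of these genes are transcribed only late in the cell cycle, under FOXM1 and B-MYB with the MuvB complex, and are repressed in quiescent cells by the DREAM complex, and their summed mRNA is widely read as a proliferation signature of breast tumors.

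The vehicle libraries held 17602570 to 22277442 counts each. The guadecitabine libraries held 8792127 to 21410849, and replicate 2 was the smallest. Vehicle replicate 3 stood apart, with 20 transcripts at 0 counts against 2498 and 2517 in the other vehicle libraries. Every one of the 43 genes had at least 124 counts in every library. Vimentin (VIM, 37619 normalized counts per kb in vehicle) and CD44 (3065) were high, while ESR1 and PGR had at most 1 count in each library other than vehicle replicate 3, where they had 67 and 43. ERBB2, EPCAM and CDH1, like ESR1 and PGR fixed as low or absent in the line, were at 350, 194 and 8.98 normalized counts per kb in vehicle. ERBB2 and EPCAM were thus low but not absent. SPARC, fixed as a marker present in the line, was at 9.77 normalized counts per kb in vehicle and 927 after guadecitabine (log2 fold change 6.51). Of 12 markers of blood, stromal, endothelial, liver and islet cells, 10 had a row, and their summed level was 3886 to 4581 normalized counts in vehicle and 9573 to 10632 after guadecitabine. CD68, which rose (log2 fold change 1.27), gave most of that sum. COL1A1 rose as well (3.38), while the other collagen gene of the list, COL1A2, fell (-0.61). PTPRC, DCN and ALB had at most 4 counts outside vehicle replicate 3 and 11 to 36 in it. VWF had 66 counts in that library and 4 to 11 in the others. A part of these markers in the values below was not tested.

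After guadecitabine the mitosis and G2/M genes were lower as a set, by a modest amount. Of the 43 genes, 17 fell and 0 rose at an adjusted p of 0.05 in the quasi-likelihood test of edgeR, fitted over all genes, whose estimates are given below as log2 fold changes with a standard error (SE). Among the 13322 genes tested, 18.4% fell and 19.3% rose, so that 37.7% were called in either direction. At an unadjusted p of 0.05, 22 members were lower and 1 higher, and DESeq2 called 20 lower and 0 higher. The median log2 fold change of the 43 genes was -0.28, against 0.02 over all genes tested, and 39 of the 43 estimates were negative. The 4 positive ones were those of BUB1, MAD2L1, CENPE and HMMR. No member changed by more than 2-fold, although 16.01% of all genes tested did. That comparison was not matched for level. The members had at least 124 counts in every library, while the filter on low counts had a minimum of 10. The genes that fell had fold changes between 0.586 and 0.819. In 22 of the 43 genes all guadecitabine libraries lay below all vehicle libraries, and in 1 gene they lay above, against 25% and 26.6% of all genes tested. A core of 8 genes was called lower under each of 14 alternative ways of processing the data. These were CCNB1, CCNB2, FOXM1, PLK1, INCENP, BIRC5, ESPL1 and KIF20A, and the other 9 calls were lost under at least 1 alternative. With single libraries left out, 9 members were called lower without vehicle replicate 1, 9 without vehicle replicate 2 and 10 without guadecitabine replicate 3. Without vehicle replicate 3, the library that stood apart, 18 were lower, and without the shallow guadecitabine replicate 2, 13 were lower and 1 was higher. With both of these left out, 17 were lower and 2 higher.

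Summed over the 43 genes, the members took 0.676%, 0.687% and 0.722% of all counts in vehicle replicates 1, 2 and 3. In the guadecitabine libraries they took 0.620%, 0.504% and 0.563%. The guadecitabine shares were all below the vehicle shares, and the lowest belonged to the shallowest library. In normalized counts the sum was 126180 ± 1755 (SD, n = 3) for vehicle and 99415 ± 8737 for guadecitabine, a ratio of 0.788.

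**Figure D1:**
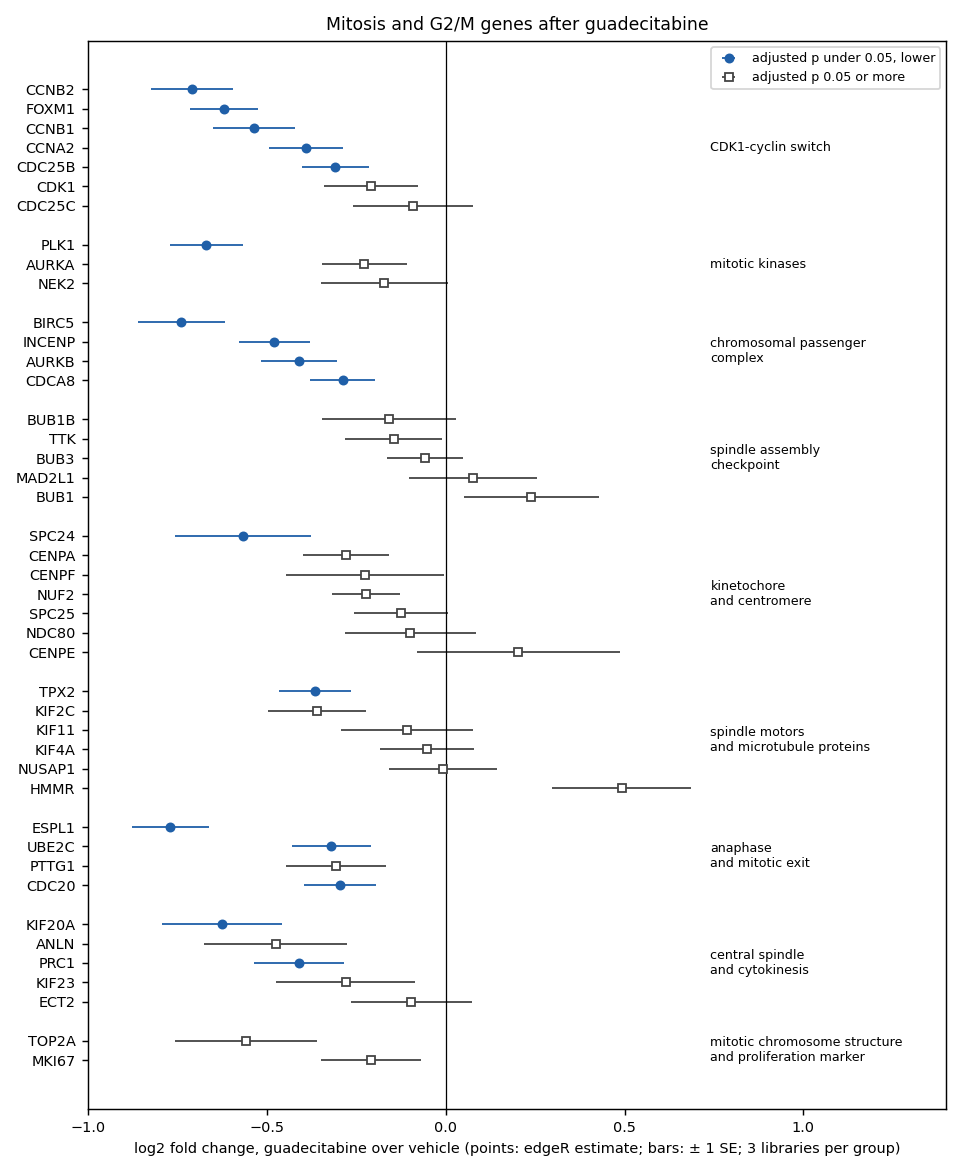
Log2 fold change of each of the 43 mitosis and G2/M genes, guadecitabine over vehicle, sorted within its role, with points for the edgeR estimate and bars for 1 standard error (3 libraries per group). Filled circles are the 17 genes that fell at an adjusted p of 0.05, against 18.4% of all genes tested. They include all 4 genes of the chromosomal passenger complex and none of the 5 of the spindle assembly checkpoint.

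Promoters of late cell cycle genes commonly carry a cell cycle homology region (CHR), an element bound by the MuvB complex, downstream of boxes for the factor NF-Y. To show what the members share beyond their function, both motifs were searched in RefSeq windows of 300 bases around the transcription start sites, from 250 bases before to 50 after, on the GRCh38.p14 build. The CHR was searched as TTTGAA and the NF-Y box as CCAAT, each on both strands. Variants of these letters were not searched, so a window without TTTGAA is not shown to lack a CHR. A window was found for 36 of the 43 genes, with 46 start sites, and none for AURKA, BIRC5, BUB3, FOXM1, TPX2, TTK and UBE2C. TTTGAA occurred in 25 of the 36 genes (69.4%), against 13.6% of the 10191 tested genes with a window. CCAAT occurred in 30 (83.3%), against 42.7%, and both motifs in 21 (58.3%), against 7.46%. Among the members, TTTGAA was in 7 of the 13 genes with a window that fell and in 18 of the 23 that were not called, and CCAAT was in 13 and 17. These letters are a description of the windows, not evidence that a factor is bound.

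The 130 bases before the start site are shown for 6 genes, in lower case with TTTGAA and CCAAT, or their reverse complements, in capitals. ESPL1, CCNB2 and PLK1 are shown as genes with large falls and both motifs, with TTTGAA starting at -31, -29 and -29 from the start site. CCNB1 and KIF20A fell without TTTGAA in these bases, and HMMR, with 2 adjoining copies of it at -28 and -22, had the highest estimate of the set.
ESPL1, chr12:53268169-53268298, plus strand: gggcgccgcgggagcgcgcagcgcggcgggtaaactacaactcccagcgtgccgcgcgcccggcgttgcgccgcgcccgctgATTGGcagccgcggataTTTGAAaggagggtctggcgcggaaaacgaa
CCNB2, chr15:59105016-59105145, plus strand: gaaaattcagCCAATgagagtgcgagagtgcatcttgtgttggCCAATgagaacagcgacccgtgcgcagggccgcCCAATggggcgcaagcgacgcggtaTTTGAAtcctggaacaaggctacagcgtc
PLK1, chr16:23678759-23678888, plus strand: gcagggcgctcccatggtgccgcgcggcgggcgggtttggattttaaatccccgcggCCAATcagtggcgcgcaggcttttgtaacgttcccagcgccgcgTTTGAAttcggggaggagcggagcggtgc
CCNB1, chr5:69167020-69167149, plus strand: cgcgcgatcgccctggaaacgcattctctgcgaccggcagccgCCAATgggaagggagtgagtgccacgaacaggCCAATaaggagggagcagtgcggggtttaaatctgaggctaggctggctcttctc
KIF20A, chr5:138178982-138179111, plus strand: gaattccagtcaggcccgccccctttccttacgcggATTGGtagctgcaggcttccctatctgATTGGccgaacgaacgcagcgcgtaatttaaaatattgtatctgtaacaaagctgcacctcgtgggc
HMMR, chr5:163460502-163460631, plus strand: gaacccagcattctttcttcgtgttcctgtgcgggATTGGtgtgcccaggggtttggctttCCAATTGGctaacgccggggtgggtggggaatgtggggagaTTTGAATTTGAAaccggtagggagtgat

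**Figure D2:**
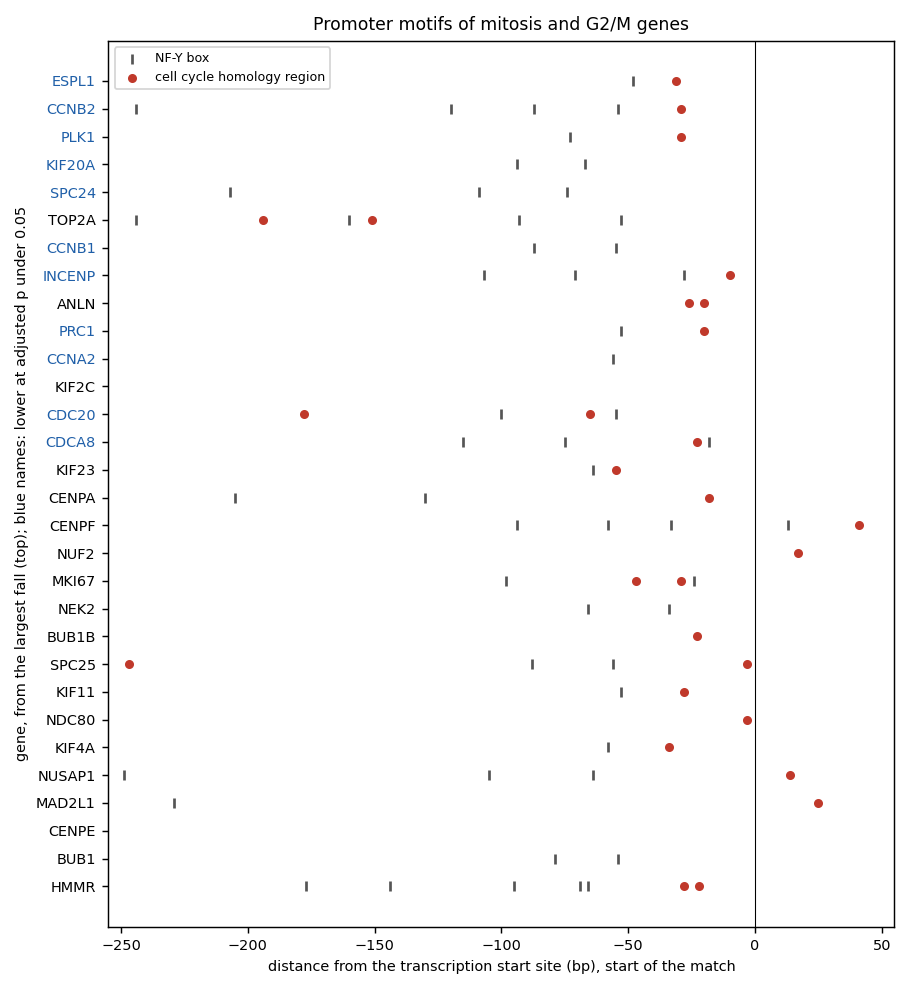
Position of CCAAT (bars) and TTTGAA (red circles), on either strand, in bp from the transcription start site, for the 30 members with 1 start site in the RefSeq table, ordered from the largest fall at the top. Blue names are genes that fell, and red circles near -30 occur both among them and among the genes at the bottom, such as KIF11, KIF4A and HMMR.

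The CDK1-cyclin switch was lower on the side of the cyclins and of FOXM1, with 5 of its 7 genes called. Cyclin B2 (CCNB2, chr15:59397284-59417244 on hg19, plus strand), a partner of CDK1, had 1866, 1743 and 1911 normalized counts in vehicle replicates 1, 2 and 3, and 1145, 987 and 1238 after guadecitabine. The groups were well apart, and the log2 fold change was -0.71 (SE 0.114, adjusted p = 0.00136, edgeR). Cyclin B1 (CCNB1, chr5:68462837-68474070), the main mitotic cyclin, had 6173, 6457 and 5490 in vehicle and 4549, 3680 and 4259 after guadecitabine, a log2 fold change of -0.54 (SE 0.115, adjusted p = 0.00618, edgeR). FOXM1 (chr12:2966847-2986321, minus strand), the transcription factor that many genes of this set depend on, went from 4790, 4644 and 5075 to 3076, 3039 and 3322. Its log2 fold change was -0.62 (SE 0.0958, adjusted p = 0.00106, edgeR), and 21.1% of its exon bases overlap exons of ITFG2 on the opposite strand, whose reads may be counted with it. Cyclin A2 (CCNA2, log2 fold change -0.39) and the phosphatase CDC25B (-0.31) also fell, by less. Exons of other genes also overlap 9.24% of the CCNA2 exon bases, 10.2% of those of CDC25C, 8.50% of those of PLK1 and 10.0% of those of BUB1B.

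CDK1 itself was not called. It had 3863, 3708 and 2903 normalized counts in vehicle and 2821, 3315 and 2928 after guadecitabine, so that vehicle replicate 3 lay among the treated libraries. The log2 fold change of CDK1 was -0.21 (SE 0.131, adjusted p = 0.239, edgeR), and without vehicle replicate 3 it was -0.33 (adjusted p = 0.0444). CDC25C, the phosphatase that activates CDK1 at mitotic entry, had 364, 376 and 410 in vehicle and 413, 261 and 393 after guadecitabine, with overlapping groups (log2 fold change -0.09, adjusted p = 0.696, edgeR). The CCNA2 call was lost without vehicle replicate 2 (adjusted p = 0.0721, edgeR) or guadecitabine replicate 3 (0.0707). The CDC25B call was lost without vehicle replicate 1 or 2 or guadecitabine replicate 1 or 3, with log2 fold changes from -0.33 to -0.27.

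Among the mitotic kinases, 1 of 3 genes, PLK1, was called. The polo kinase PLK1 (chr16:23690143-23701688 on hg19), which acts in centrosome maturation, mitotic entry and cytokinesis, had 4669, 4867 and 4659 normalized counts in vehicle and 2766, 2870 and 3288 after guadecitabine. All 3 treated values were far under the vehicle range, and the log2 fold change was -0.67 (SE 0.103, adjusted p = 0.00104, edgeR). Aurora A (AURKA), the centrosomal kinase of spindle assembly, had 3070, 3271 and 2894 in vehicle and 2861, 2241 and 2775 after guadecitabine. Its groups did not overlap but lay close, with a log2 fold change of -0.23 (adjusted p = 0.166, edgeR). NEK2, a kinase of centrosome separation, had 540, 525 and 508 in vehicle and 589, 334 and 457 after guadecitabine. Guadecitabine replicate 1 was its highest library and replicate 2 its lowest, and the estimate of -0.17 (adjusted p = 0.483, edgeR) became 0.00 without guadecitabine replicate 2.

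The chromosomal passenger complex, which corrects faulty spindle attachments and then directs cytokinesis, was lower in all 4 of its genes. Survivin (BIRC5, chr17:76210277-76221716 on hg19), its targeting subunit and also an inhibitor of apoptosis, had 6452, 6237 and 5164 normalized counts in vehicle and 3254, 3926 and 3520 after guadecitabine. With a log2 fold change of -0.74 (SE 0.122, adjusted p = 0.00152, edgeR), only ESPL1 had a larger fall among the 43 genes. The kinase of the complex, Aurora B (AURKB), had 2789, 3100 and 2677 in vehicle and 2004, 2151 and 2291 after guadecitabine (log2 fold change -0.41, standard error 0.106, adjusted p = 0.0147, edgeR). The scaffold INCENP (chr11:61891445-61920635) fell by 0.48 on the log2 scale (adjusted p = 0.00478, edgeR). Borealin (CDCA8) had 3209, 3090 and 3094 in vehicle and 2553, 2495 and 2640 after guadecitabine, the smallest fall of the complex (log2 fold change -0.29, standard error 0.0918, adjusted p = 0.0346, edgeR). The AURKB call was lost without vehicle replicate 1 (adjusted p = 0.0502, edgeR) or 2 (0.0815). The CDCA8 call was lost without any single library other than vehicle replicate 3, at log2 fold changes between -0.32 and -0.27.

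The spindle assembly checkpoint genes gave no call in either direction. Of its 5 genes, 0 fell and 0 rose in the edgeR test, 0 passed an unadjusted p of 0.05, and DESeq2 called 0. Over all genes tested 18.4% fell and 19.3% rose, so 0 of 5 genes does not set the checkpoint apart. BUB1, the kinase that recruits the checkpoint proteins to kinetochores, had 1983, 2125 and 1799 normalized counts in vehicle and 2951, 1642 and 2353 after guadecitabine. Its treated libraries lay on both sides of the vehicle range, with a log2 fold change of 0.24 (SE 0.189, adjusted p = 0.353, edgeR), and without guadecitabine replicate 2 the value was 0.43 (adjusted p = 0.0397). BUB1B, which encodes the inhibitor BUBR1, had 841, 881 and 780 in vehicle and 940, 517 and 764 after guadecitabine (log2 fold change -0.16, adjusted p = 0.54, edgeR). For the other genes of the checkpoint the log2 fold changes were -0.15 for the kinase TTK, -0.06 for BUB3 and 0.08 for MAD2L1, which encodes MAD2. The MAD2L1 estimate rests on vehicle replicate 3, with 1332 normalized counts against 2070 and 2109, and was -0.11 without that library.

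At the kinetochore, 1 of 7 genes fell (14.3%), a share below the 18.4% of all genes tested. SPC24, a subunit of the NDC80 complex that holds the microtubules, had 589, 577 and 457 normalized counts in vehicle and 268, 456 and 384 after guadecitabine (log2 fold change -0.57, standard error 0.191, adjusted p = 0.0427, edgeR). Its lowest vehicle library and its highest treated library were almost equal. The call was lost without vehicle replicate 1 or 2 or guadecitabine replicate 1 or 3, and without guadecitabine replicate 1 the log2 fold change was -0.37. Its partners in the complex had log2 fold changes of -0.22 for NUF2, -0.13 for SPC25 and -0.10 for NDC80, none of them called. CENPA, the histone H3 variant that marks the centromere, had 583, 636 and 555 in vehicle and 440, 554 and 474 after guadecitabine (log2 fold change -0.28, adjusted p = 0.0976, edgeR), and without guadecitabine replicate 2 it was -0.37 (adjusted p = 0.0403). The motor CENPE had 828, 1164 and 945 in vehicle and 1739, 802 and 815 after guadecitabine, so that replicate 1 alone lay above vehicle. Its log2 fold change of 0.20 (adjusted p = 0.607, edgeR) became -0.27 without guadecitabine replicate 1. CENPF, a large late G2 protein of the kinetochore, was at -0.23 with its lowest value, 1225 normalized counts, in guadecitabine replicate 2.

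Of 6 spindle motors and microtubule proteins, 1 fell (16.7%), a share close to the 18.4% of all genes tested. TPX2, which activates Aurora A and nucleates spindle microtubules, had 8197, 7491 and 8500 normalized counts in vehicle and 6425, 5762 and 6563 after guadecitabine (log2 fold change -0.37, standard error 0.101, adjusted p = 0.0191, edgeR). The TPX2 call was lost without vehicle replicate 1 (adjusted p = 0.0755, edgeR) or guadecitabine replicate 2 (0.0547). The bipolar kinesin KIF11 (Eg5) had 1382, 1215 and 987 in vehicle and 1386, 861 and 1061 after guadecitabine, with fully mixed groups (log2 fold change -0.11, adjusted p = 0.679, edgeR). HMMR (chr5:162887517-162918953 on hg19), the hyaluronan-mediated motility receptor that also binds spindle microtubules, had the lowest normalized count of the set and the highest estimate. It had 188, 224 and 217 normalized counts in vehicle and 385, 252 and 240 after guadecitabine, a log2 fold change of 0.49 (SE 0.194, adjusted p = 0.0748, edgeR). HMMR was the 1 member with all treated libraries above vehicle. With vehicle replicate 3 and guadecitabine replicate 2 left out together it was 0.61 (adjusted p = 0.0164). The microtubule depolymerase KIF2C was at -0.36, the chromokinesin KIF4A at -0.05 and NUSAP1 at -0.01, none of them called, and 90.8% of the NUSAP1 exon bases lie in another annotated gene of the same strand. Without vehicle replicate 3 KIF2C was at -0.41 (adjusted p = 0.043, edgeR).

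The genes of anaphase and mitotic exit held the largest fall of the set, and 3 of 4 were called. Separase (ESPL1, chr12:53662083-53687427 on hg19), the protease that cleaves cohesin to free the sister chromatids, had 1494, 1483 and 1291 normalized counts in vehicle and 777, 873 and 855 after guadecitabine. The log2 fold change was -0.77 (SE 0.109, adjusted p = 0.000641, edgeR), or 0.586 of the vehicle level. Securin (PTTG1), the inhibitor of separase, was at -0.31 (adjusted p = 0.116, edgeR) with overlapping groups. CDC20, the APC/C activator, had 7567, 7455 and 7294 in vehicle and 5561, 5981 and 6636 after guadecitabine (log2 fold change -0.30, adjusted p = 0.0431, edgeR). UBE2C, the ubiquitin-conjugating enzyme of the APC/C, had 6334, 5799 and 6887 in vehicle and 4719, 4915 and 5601 after guadecitabine (log2 fold change -0.32, adjusted p = 0.0475, edgeR). Both of these calls were marginal and were lost without any 1 of the 6 libraries, with values from -0.37 to -0.24 for CDC20 and from -0.40 to -0.26 for UBE2C.

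In the central spindle and cytokinesis group, 2 of 5 genes fell. KIF20A (chr5:137514417-137523404 on hg19), the kinesin that brings the passenger complex and PLK1 to the central spindle, had 3582, 3497 and 3944 normalized counts in vehicle and 2596, 1730 and 2802 after guadecitabine. The treated libraries were all lower but spread widely, with a log2 fold change of -0.63 (SE 0.168, adjusted p = 0.0174, edgeR). PRC1, the bundler of antiparallel microtubules, fell by 0.41 on the log2 scale (adjusted p = 0.0295, edgeR). This call was lost without vehicle replicate 1 or 2 or guadecitabine replicate 2 or 3, and was at -0.29 without guadecitabine replicate 2. Of the PRC1 exon bases, 34.2% overlap exons of another gene on the opposite strand and 75.0% those of another gene on the same strand. ECT2, the RhoA activator of the contractile ring, had 2179, 2182 and 1785 in vehicle and 2435, 1614 and 1685 after guadecitabine (log2 fold change -0.10, adjusted p = 0.686, edgeR). The ring scaffold anillin (ANLN) was at -0.48 (adjusted p = 0.0906, edgeR), with 5204 normalized counts in guadecitabine replicate 1 against 2790 and 3458 in the others, and at -0.77 (adjusted p = 0.00281) without that library. The kinesin KIF23 showed the same order of libraries, with -0.28 over all and -0.56 (adjusted p = 0.0104, edgeR) without guadecitabine replicate 1.

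The remaining 2 genes, the chromosome protein TOP2A and the proliferation marker MKI67, were not called. Topoisomerase II alpha (TOP2A), which untangles sister chromatids, had 6296, 7603 and 6388 normalized counts in vehicle and 6138, 3344 and 4270 after guadecitabine. Its groups did not overlap, yet replicate 1 of the treated group lay just under vehicle, and the log2 fold change of -0.56 (SE 0.199, adjusted p = 0.0528, edgeR) missed the threshold. It passed in 8 of the 14 alternatives, among them the one without guadecitabine replicate 1 (-0.83, adjusted p = 0.00366) and the one without vehicle replicate 3 (-0.60, adjusted p = 0.0433). MKI67, the gene of the Ki-67 antigen, had 6127, 5033 and 7247 in vehicle and 5802, 5031 and 5099 after guadecitabine. The lowest vehicle library sat among the treated ones, and the log2 fold change was -0.21 (adjusted p = 0.272, edgeR).

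**Figure D3:**
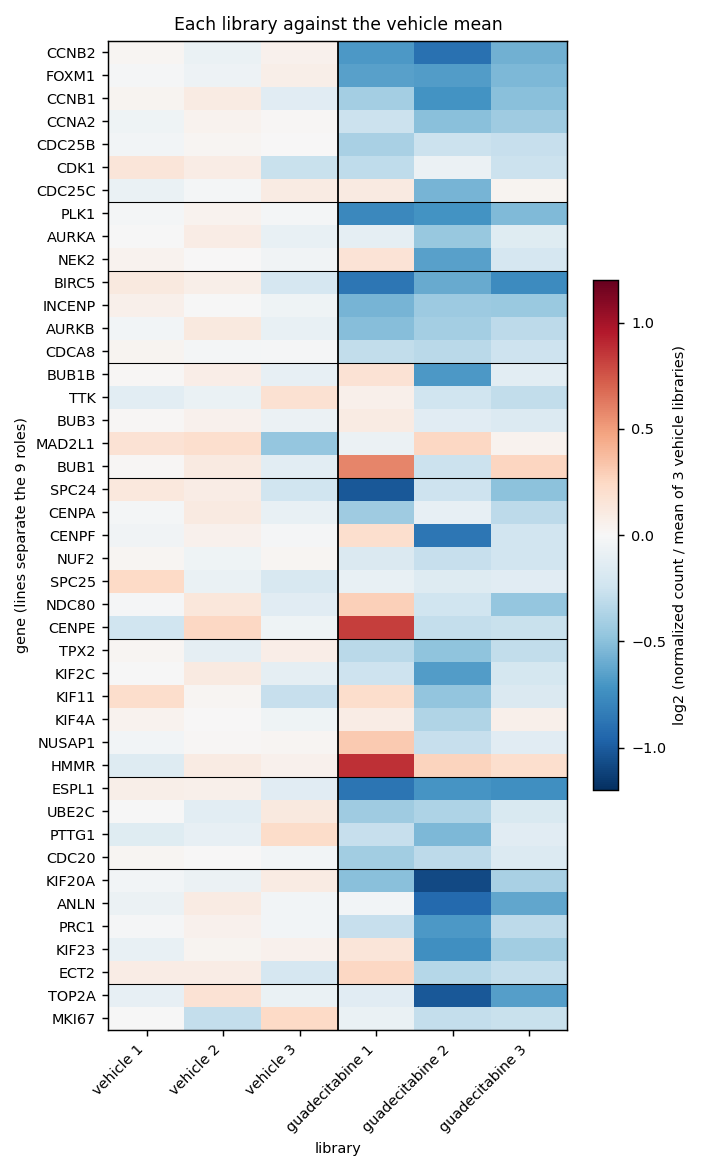
Log2 ratio of the normalized count in each of the 6 libraries (columns) to the mean of the 3 vehicle libraries, for the 43 genes (rows), in the order of the fold change plot with lines between the roles. Blue is lower and red higher than vehicle, and guadecitabine replicate 1 is red for CENPE, HMMR and BUB1 where replicate 2 is pale or blue.

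The treated libraries differed among themselves more than the vehicle libraries did. The coefficient of variation had a median of 12.8% over the 43 genes after guadecitabine and 6.46% in vehicle, and it was larger after guadecitabine in 35 of the 43 genes. Over the 9022 genes tested with more than 200 normalized counts in vehicle the medians were 11.3% and 7.85%, and 66.5% of the genes had the larger value after guadecitabine. The widest were CENPE at 48.0%, CENPF at 35.5%, ANLN at 32.6%, KIF23 at 31.5% and TOP2A at 31.0%. Guadecitabine replicate 2 was the lowest treated library in 27 of the 43 genes and replicate 1 the highest in 24. Replicate 2 was also the least deeply sequenced, and a part of its depth in this order was not tested. By contrast, the treated libraries were close together for ESPL1, with 777 to 873 normalized counts, and for FOXM1, with 3039 to 3322.

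Levels between genes were compared per kb of counted exon. In vehicle UBE2C was the most abundant mRNA of the set, at 8309 ± 713 normalized counts per kb (SD, n = 3), followed by CDC20 at 4444 ± 81.7, PTTG1 at 3648 ± 516 and CCNB1 at 2787 ± 229. At the lower end stood HMMR at 80.2 ± 7.38, CENPE at 119 ± 20.7, CDC25C at 193 ± 12.1, ESPL1 at 215 ± 17.2 and CENPF at 218 ± 7.18, and ESPL1 and CENPF did not differ beyond their spread. After guadecitabine UBE2C, at 6656 ± 607, CDC20, at 3620 ± 324, and PTTG1, at 2947 ± 401, still held the top of this order. The median vehicle level was 1469 normalized counts per kb over the 17 genes that fell and 446 over the 26 that were not called. ESPL1, with the largest fall of all, was an exception at the low end.

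Other genes of the mitotic machinery, taken from lists by function, showed falls and rises side by side. Of 73 further mitosis genes, 20 fell (27.4%) and 6 rose (8.22%), with a median log2 fold change of -0.10. The lowest were the nuclear lamin LMNB1 (-1.25), the spindle protein PSRC1 (-0.97) and the kinetochore subunit NSL1 (-0.86), and the highest the kinetochore proteins SKA1 (0.70) and ZWILCH (0.67) and the spindle protein CKAP2L (0.69). Of 16 condensin and cohesin genes, 5 fell (31.25%) and 0 rose in the edgeR test, against 18.4% and 19.3% of all genes tested. Of these 16 genes, 0 were higher at an unadjusted p of 0.05, and DESeq2 called 0 higher. The largest falls there were in the condensin subunits NCAPD2 (-0.86) and NCAPD3 (-0.64) and the cohesin subunit STAG1 (-0.61). Of 17 genes of the APC/C and its cofactors, 3 fell (17.6%) and 2 rose (11.8%), a share of falls close to the 18.4% of all genes tested. The subunit ANAPC15 was lowest (-0.66), followed by ANAPC2 (-0.50) and the inhibitor FBXO5 (-0.46), and the chain-elongating enzyme UBE2S (0.40) and the subunit ANAPC13 (0.39) were highest. Without vehicle replicate 1, vehicle replicate 2 or guadecitabine replicate 3, the further mitosis genes had 13, 12 and 12 called lower and 3 called higher each time. The same 3 omissions left 2, 3 and 3 condensin and cohesin genes and 1 APC/C gene each called lower, with 0 APC/C genes called higher. Without guadecitabine replicate 1, 8 condensin and cohesin genes were lower, and without vehicle replicate 3, 1 APC/C gene was higher.

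The list of G2/M regulators also held G1 genes such as CDK4, CDK6 and CCND1. Its genes moved in both directions, as did all genes tested. Of 31 tested, 8 rose (25.8%) and 10 fell (32.3%), against 19.3% and 18.4% of all genes. CDKN1A, which encodes the CDK inhibitor p21, had 4958, 4634 and 3862 normalized counts in vehicle and 12316, 17377 and 14398 after guadecitabine. At a log2 fold change of 1.71 (SE 0.15, adjusted p = 4.06e-05, edgeR) it was the highest of the list, followed by the G1 kinase CDK6 (0.97) and cyclin E1 (CCNE1, 0.76). The inhibitors CDKN2C (-1.58) and CDKN1B (-0.93), which encode p18 and p27, were among the lowest. WEE1, the kinase that holds CDK1 inactive, had 996, 990 and 958 in vehicle and 742, 678 and 611 after guadecitabine (log2 fold change -0.54, adjusted p = 0.00443, edgeR). CDC25A, which opposes it, had 666, 617 and 565 in vehicle and 974, 1134 and 931 after guadecitabine (log2 fold change 0.72, adjusted p = 0.00155, edgeR). MYBL2, which encodes B-MYB, was higher as well (0.59), while FOXM1 fell, and so was the MuvB subunit LIN54 (0.61). The MuvB subunits LIN9 (0.10), LIN37 (0.12) and LIN52 (0.45) were not called. E2F1 was at -0.17 and was not called. CDKN2A and CDKN2B were not analysed here.

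DNA replication genes, the nearest group in the cell cycle, were also lower in part. Of 54 such genes 19 fell (35.2%) and 8 rose (14.8%), with a median log2 fold change of -0.17, while 39.5% of the mitosis and G2/M genes fell and 0% rose. The lowest were the ligase LIG1 (-1.15) and the helicase subunits MCM5 (-1.11) and MCM6 (-0.82). The highest were CCNE1 (0.76), the primase subunit PRIM2 (0.71) and the origin protein ORC6 (0.71). CCNE1, CCNE2 and E2F1 are also counted among the regulators above. The difference between the 2 groups was not tested. Without vehicle replicate 1 or 2, 12 replication genes were lower.

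**Figure D4:**
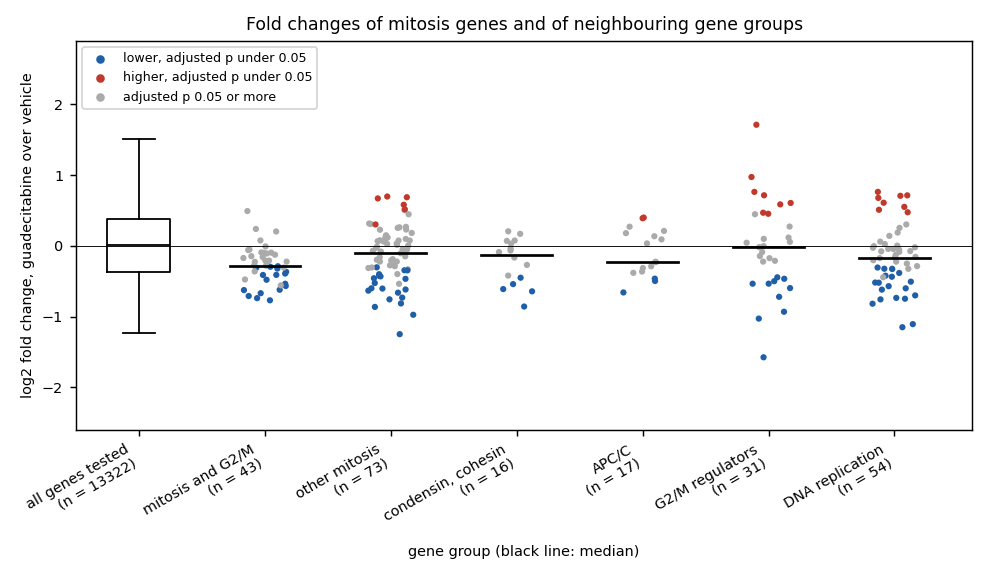
Log2 fold change of each tested gene (points) in the mitosis and G2/M set and in 5 neighbouring gene groups, with a black line at the median, beside all 13322 genes tested (box for the quartiles, whiskers from the 5th to the 95th percentile). The mitosis and G2/M set has 17 blue points (lower) and no red one (higher), whereas the other mitosis genes have 20 blue and 6 red points.

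In the exact permutation test, two-sided, no single gene can reach a p of 0.05 from the 6 libraries, since 3 against 3 allows at best p = 0.1. The adjusted p-values above use the spread of each gene, moderated by the spread over all genes.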

How the data were processed

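Purified RNA of the 6 cultures was sequenced by the authors after the TruSeq RNA kit on a HiSeq 1500. Per the study's methods, reads were aligned to the hg19 build by STAR (2.3.1z in the submitters' processing notes). The authors counted reads in exons per RefSeq transcript with iRNA-seq, and deposited these raw counts, 1 transcript per gene, without normalization. The deposited exon length of each transcript, in bp, gave the values per kb. Log2 values after DESeq2's regularized transformation and a DESeq2 comparison with fold changes and p-values, also in the table, were not used. Treatment of reads with several matches, and whether strand was used in counting, are not given in the sources used here.

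The test was that of edgeR 4.0.16, run in R 4.3.3 (TMM normalization, filterByExpr with a minimum count of 10, quasi-likelihood test, Benjamini-Hochberg adjustment over 13322 genes, threshold 0.05), group as the only term. A normalized count is a count per TMM-adjusted library size, times the mean total of 17911210. The SE is the log2 fold change divided by the root of F. The code was tested on simulated data. All 6 library totals differed. Positions in the table count from 0, as 6661 starts plus 1 and 789 starts as deposited were GENCODE transcript starts on GRCh37. Exon overlaps were read from that annotation.

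The members, lists and alternatives were chosen with earlier results of these data known. Members described with all values were CDK1, CCNB1, PLK1, AURKA, AURKB, BUB1, CENPA, KIF11, CDC20, UBE2C, FOXM1, MKI67, TOP2A and the highest and lowest log2 fold change of each role. From each list, the 3 highest and 3 lowest genes past the threshold were named, with CDKN1A, WEE1, CDC25A, MYBL2, LIN54 and E2F1 always named. LIN9, LIN37 and LIN52 were named beside LIN54 after their values were seen. A gene that this rule names is not reported here. INCENP, PRC1, ANLN and other members outside this rule are given by their estimates, and single library values for ANLN, CENPF and MAD2L1 were chosen after they were seen. Alternatives were a replicate block, DESeq2 1.42.0, its size factors, library totals, testing without a filter, a floor of 10 counts in every library, and each library left out. Offsets for GC content and exon length, and 2 libraries left out together, were added after seeing the data.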

Additional observations from a re-analysis of the deposited data

How the results depend on the processing

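Of the 17 calls, 8 held under each of 14 alternatives. The number of members called lower was 20 with DESeq2, 23 with offsets for GC content and exon length, 16 with DESeq2's size factors or library totals only, 18 with at least 10 counts in every sample and 11 without a filter, which tests more genes. With single libraries left out it ranged from 9 to 18, and the number called higher from 0 to 1. With vehicle replicate 3 and guadecitabine replicate 2 both left out, 17 were lower and 2, BUB1 and HMMR, higher. The median log2 fold change of the set was -0.24 with library totals only, -0.31 with the offsets and -0.23 without both libraries, and ranged from -0.32 to -0.23 with single libraries left out.

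Over all genes the median was 0.051 with library totals only, -0.11 without a filter and 0.049 without both libraries, and ranged from -0.018 to 0.041 with single libraries left out. The genes called higher ranged from 1706 to 3002 and those called lower from 1629 to 2575 when 1 library was left out, the low values without guadecitabine replicate 3, and without both libraries 3587 and 3059 were called. Further mitosis genes called lower were 13 without a filter and 12 to 28 with 1 library left out, and those called higher 3 to 9. DNA replication genes called lower were 12 without a filter, 12 to 20 with 1 library left out and 21 without both. Condensin and cohesin genes called lower ranged from 2 to 8 with 1 library left out, and 1 was higher without both libraries. APC/C genes called lower were 7 with the offsets, 5 without both libraries and 1 to 4 with 1 library left out, and those called higher 0 to 2.

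With the replicate number as a replicate block, 14 members were lower and 0 higher, and over all genes 2230 were lower and 2424 higher. CDC25B, CDCA8, CDC20 and UBE2C then missed the threshold and TOP2A passed it. Correlations of deviations between same-numbered libraries were -0.038, 0.038 and -0.032 across genes, so that the libraries share a number and nothing else was found to pair them.

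The estimates of some members that were not called changed sign. Not all of these were near 0 in the main fit, with CENPE at 0.20 and CENPF at -0.23. NUSAP1 was at 0.028 with library totals only, 0.0089 without a filter and 0.12 without both libraries. MAD2L1 was at -0.033 with the offsets and -0.20 without both libraries, where CDC25C was at 0.13, TTK at 0.0017 (from -0.15), CENPF at 0.0020 and KIF4A at 0.05. With 1 library left out, the log2 fold change ran from -0.21 to 0.07 for CDC25C, -0.39 to 0.00088 for NEK2, -0.36 to 0.035 for BUB1B, -0.11 to 0.19 for MAD2L1, -0.27 to 0.39 for CENPE, -0.51 to 0.0073 for CENPF, -0.35 to 0.049 for NDC80, -0.21 to 0.014 for SPC25, -0.31 to 0.04 for KIF11, -0.13 to 0.077 for KIF4A, -0.21 to 0.11 for NUSAP1 and -0.31 to 0.011 for ECT2. The cause of these changes was not tested.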
